A study of Homo sapiens with 3 samples.

Results

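C4-2B MDVR cells, an enzalutamide-resistant subline of a human prostate cancer line, were compared with C4-2B parental cells by gene expression microarray. The comparison took the array labelled as resistant to MDV3100, an earlier name of enzalutamide, minus the array labelled parental, for every probe set that carried a gene symbol. It took 2 of the 3 arrays measured, 1 per line. Of 54675 probe sets, 42892 carried a symbol, and the gene values below rest on the 41091 of them with 1 symbol alone. C4-2B is an established castration-resistant line derived from LNCaP. C4-2B MDVR cells were kept in medium with 20 µM enzalutamide. C4-2B parental cells, for which the methods name no drug, were grown in serum-containing medium and were passaged beside the resistant cells. The remaining array was of C4-2B AbiR cells, kept in 10 µM abiraterone acetate, and its difference from the same parental array is given for part of the genes. Where no AbiR value is printed, nothing is said of that subline. Whether the subline is a single clone was not given in the sources used here.

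The androgen receptor is a transcription factor that, once it has bound androgen, switches on genes such as KLK3, which encodes prostate-specific antigen. Enzalutamide binds the receptor in place of androgen. Abiraterone instead inhibits CYP17A1, an enzyme needed to make androgens, and some enzymes downstream of it, the aldo-keto reductases among them, convert weak androgens to strong ones. Prostate cancer cells that keep growing under such drugs are known to differ from their parents in androgen-responsive, steroid-converting and lineage genes.

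Values were log2 signals that had been centred for each probe set, so that a value of 0 is no absence of expression and only differences between arrays can be read. A log2 difference of 1 is a 2-fold difference. Each of 19775 genes was given the mean of the probe sets annotated to it alone, and ± is the SD between those probe sets, a technical spread. Unless AbiR is named, a difference below is MDVR minus parental on the log2 scale. There were no replicates. No difference below was tested, and line, drug and array cannot be told apart. In bulk RNA, fewer cells of a kind and less RNA per cell cannot be told apart either. The scale of technical noise was read from 45 probe sets for bacterial transcripts spiked into the labelling and hybridization. Their MDVR minus parental differences had an SD of 0.13 and ran from −0.29 to 0.35. Over all genes the SD was 0.44 and the median 0.044, and 4555 genes lay beyond the largest spiked difference in either direction. Probe sets of 1 gene had a pooled SD of 0.35.

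**Figure D1:**
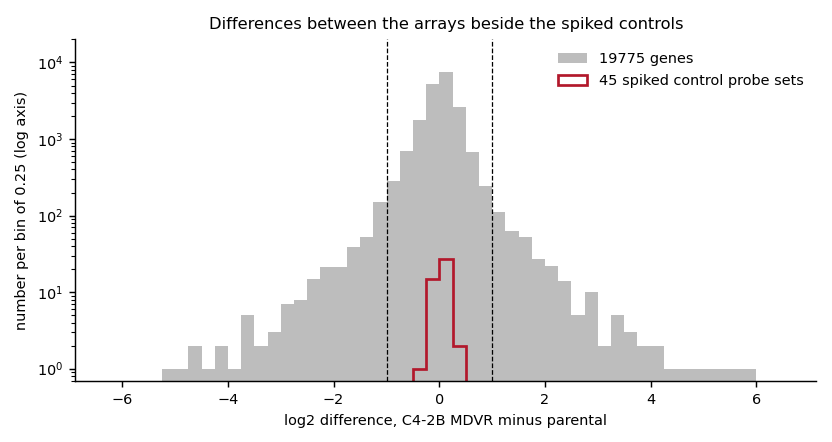
Histogram of MDVR minus parental log2 differences (x axis) with the number per bin on a log axis (y axis), for 19775 genes in grey and 45 spiked control probe sets in red, with dashed lines at 2-fold. The spiked controls lie between −0.29 and 0.35, while genes reach from −5.05 for PTGFR to 5.97 for GCG.

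At least 2-fold differences were found for 327 genes in the higher and 331 genes in the lower direction, which is 1.65% and 1.67% of all genes. Each count of list members below is to be read beside these shares. The shares for AbiR minus parental were 1.07% higher and 0.804% lower. Differences of at least 4-fold were found for 72 genes higher and 69 lower, and at least 16-fold for 9 and 7. Of the 327 genes, 192 were read by 1 probe set, and of the 331 genes 149 were. At least 2 probe sets past 2-fold in 1 direction, with none in the other, were found for 92 genes higher (0.874% of the 10523 genes with 2 or more probe sets) and 143 lower (1.36%). Without probe sets that may read several transcripts (suffix _s, _x or _a), the counts were 247 higher and 352 lower, so that the balance of directions depended on them.

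Among the largest positive differences, 2 kinds were seen when all 3 arrays were read, and some genes lay between them. In the first, the MDVR array stood alone. GCG, the proglucagon gene that is normally a product of pancreatic and gut endocrine cells, had centred values of 0.03 on the parental and −0.11 on the AbiR array, and its MDVR value lay 5.97 above the former and 6.11 above the latter. FSTL5, a secreted protein related to follistatin, had −0.16 on the parental, 5.43 on the MDVR and 0.11 on the AbiR array. SYT4, a synaptotagmin of secretory vesicles, had 0.40, 4.80 and −0.40. All 3 genes were read by a single probe set, and in each the parental and AbiR arrays lay far below the MDVR array.

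Genes read by several probe sets showed the same arrangement. DAPK1, a calmodulin-regulated kinase linked to cell death, had −0.10 on the parental, 4.54 on the MDVR and −0.15 on the AbiR array, a difference of 4.64 ± 2.09 between MDVR and parental (2 probe sets). LAMB1, the laminin β1 chain of basement membranes, had −0.08, 3.88 and 0.08 (3.96 ± 0.53, 2 probe sets). HGF, the secreted ligand of the receptor tyrosine kinase MET, had −0.10, 3.78 and 0.02 (3.87 ± 1.83, 5 probe sets). All 5 probe sets of HGF were higher in MDVR, by 1.43, 3.74, 3.78, 3.82 and 6.59. The receptor gene MET, chosen after its values were seen, differed by 0.36 ± 0.23 (4 probe sets), at the edge of the spiked range. CD200, a membrane ligand that restrains myeloid cells, differed by 3.63 ± 1.33, the schlafen gene SLFN13 by 2.30 ± 0.17 and the bile salt export pump ABCB11 by 2.24 ± 0.60 (2 probe sets each). Their AbiR minus parental values were 0.48, 0.55 and 0.32. The testis-restricted genes VCX2 and CTAG2 differed by 3.35 ± 0.22 and 2.88 ± 0.36, against 0.41 and −0.16 in AbiR. Both belong to families of near-identical copies, so the copy that was read is uncertain.

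In the second kind, the parental array stood alone, with MDVR and AbiR on the same side of it. LRRN1, a leucine-rich-repeat membrane protein of neurons, had −4.98 on the parental, 0.43 on the MDVR and −0.43 on the AbiR array. TENM2, a teneurin of synaptic adhesion, had −4.10, 1.10 and −0.59, and the adrenergic receptor ADRA2A had −3.43, 0.77 and −0.77. SOX9, a transcription factor of progenitor and ductal cells, was 6.90-fold higher in MDVR, with 2 probe sets that differed by little (2.79 ± 0.02, AbiR 2.57). The sodium pump subunit ATP1B1 differed by 3.33 ± 0.34 and the pump regulator FXYD5 by 2.75 ± 0.14, against 3.74 and 2.37 in AbiR. BEX1 and BAMBI, described further on, lay between the kinds. BEX1 differed by 4.86, with AbiR 1.04, and BAMBI by 3.21, with AbiR 1.35. Because both comparisons share the parental array, a deviation of that array would appear in both.

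Both arrangements also occurred among the negative differences, beside genes that fell into neither. CSTA, a cysteine protease inhibitor of epithelia, had −0.09 on the parental, −4.68 on the MDVR and 0.10 on the AbiR array. CNTN3, a contactin of neuronal adhesion, had −0.03, −3.76 and 0.13. PRAC1, a small protein of prostate and distal gut, had −0.06, −3.57 and 0.08. Each of these was read by 1 probe set and was low on the MDVR array alone. PRKACB, a catalytic subunit of protein kinase A, was read by 3 probe sets, all of them between −3.95 and −3.34 (−3.72 ± 0.33), and its AbiR value was 0.17. By contrast, PTGFR, the prostaglandin F receptor, had 5.09 on the parental, 0.04 on the MDVR and −0.18 on the AbiR array. ACADL, a mitochondrial long-chain acyl-CoA dehydrogenase, differed by −4.28 ± 0.27 in MDVR and by −4.28 in AbiR. ZNF385B and PRUNE2 differed by −3.67 ± 0.80 and −2.75 ± 0.16 in MDVR and by more in AbiR, −5.66 and −5.34. GULP1, an adaptor of engulfment, and the membrane protein TM4SF1 had probe sets far apart, from −7.50 to −0.15 and from −5.80 to −0.47, so that their means of −4.22 and −3.45 describe no single transcript. GULP1 and CADPS2 were lower in both sublines by unequal amounts, since CADPS2 differed by −3.80 while the AbiR values were −1.20 for GULP1 and −1.22 for CADPS2. TBC1D4, a regulator of glucose transporter traffic, differed by −3.47 ± 0.59 in MDVR and −2.11 in AbiR.

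**Figure D2:**
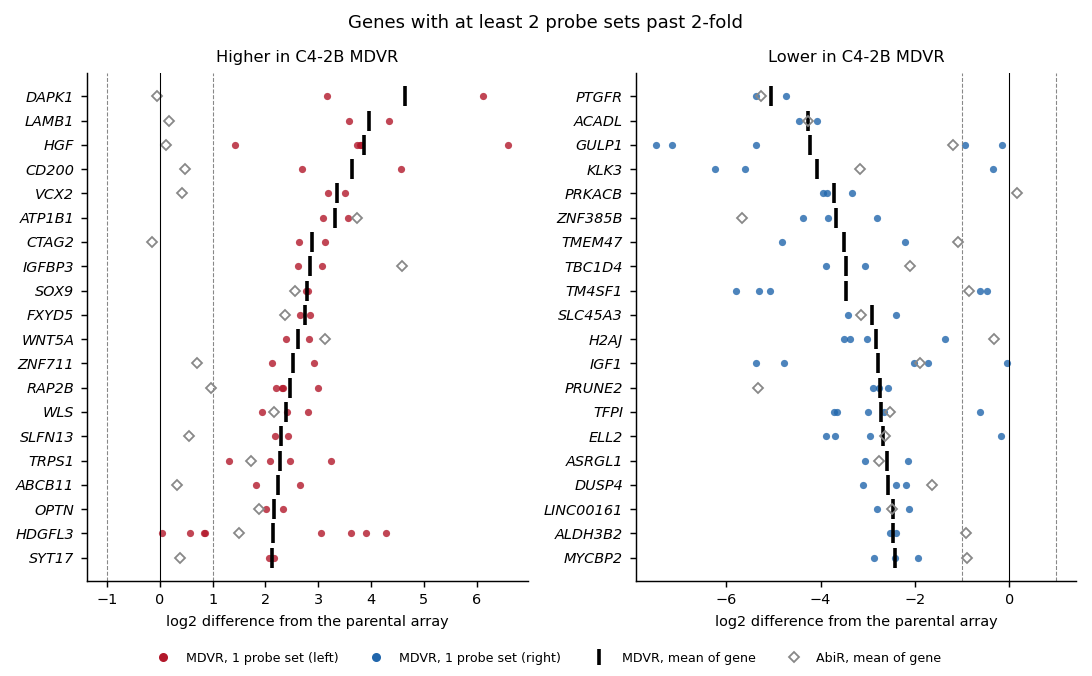
Horizontal position gives the log2 difference from the parental array, for the 20 highest and 20 lowest genes (rows) with at least 2 probe sets past 2-fold in 1 direction, with points for single probe sets in MDVR, black bars for the gene mean and open diamonds for the AbiR mean. For DAPK1, LAMB1, HGF and PRKACB the diamond lies between −0.05 and 0.17, while for SOX9, PTGFR and ACADL it lies close to the MDVR bar.

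Androgen-induced genes were lower in MDVR as a group. Of 31 members measured, 14 were at least 2-fold lower, where 1.67% of all genes were, and 0 were higher. The list median was −0.84, beside 0.044 over all genes. In AbiR the list stood at −1.05, with 17 of 31 at least 2-fold lower, beside 0.804% of all genes in that comparison. KLK3 had centred values of 3.22 on the parental, −0.84 on the MDVR and 0.06 on the AbiR array. Its 3 probe sets differed by −6.24, −5.61 and −0.35. The RNA polymerase elongation factor ELL2 differed by −2.68 ± 1.72 (4 probe sets) and the methyltransferase GNMT by −2.28 (1 probe set). The protease ADAMTS1 differed by −2.03 ± 0.27 (2 probe sets) and the efflux pump ABCC4 by −1.89 ± 1.02 (4 probe sets). AZGP1, a secreted zinc-binding glycoprotein, differed by −1.02 in MDVR and −3.53 in AbiR. KLK2, the kallikrein next to KLK3, differed by −1.29 ± 1.19 over 4 probe sets, but its only probe set without such a suffix gave 0.20. Not all members were lower, since TMPRSS2 had −0.18 ± 0.11 and KLK4, the highest, 0.31 ± 0.09.

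The promoter of KLK3 is shown because KLK3 carried the lowest value of the androgen-induced list. The 250 bases before its start are given from RefSeq, assembly GRCh38.p14, plus strand, chr19:50854665-50854914. Capitals mark AGAACA, a half-site of the androgen response element, which begins 170 bases before the start.
KLK3: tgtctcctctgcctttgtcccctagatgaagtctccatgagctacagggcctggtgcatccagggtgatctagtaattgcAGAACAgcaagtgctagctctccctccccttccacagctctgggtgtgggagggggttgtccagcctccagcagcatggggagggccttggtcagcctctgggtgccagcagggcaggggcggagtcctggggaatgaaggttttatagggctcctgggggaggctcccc

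AGAACA was searched on both strands of these 250 bases in each promoter. It was present in 1 of 24 androgen-induced promoters in the table (4.17%), that of KLK3, and in 1438 of 15384 promoters of measured genes (9.35%). The half-site is short and the windows hold no distal enhancers.

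Genes that act with the androgen receptor differed little. The gene of the receptor was not analysed here. Of 20 pioneer factors and coregulators measured, 1 was at least 2-fold lower and 0 higher, with a median of −0.04. The lower one was NCOA1, a steroid receptor coactivator, at −1.31 ± 0.45 (4 probe sets) with an AbiR value of −0.47. The pioneer factor FOXA1 had probe sets at −1.18 and −0.08, and HOXB13 differed by 0.37 ± 0.44 (2 probe sets). The glucocorticoid receptor can occupy androgen receptor sites, and its gene NR3C1 differed by 0.13 ± 0.18 (5 probe sets). Of 15 members in the list of that receptor and genes it induces, 0 were at least 2-fold higher and 1 was lower. This was ZBTB16, a transcriptional repressor, at −3.17 in MDVR and −3.05 in AbiR.

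Steroid-converting enzymes were led by the aldo-keto reductases. Of 9 members measured, 3 were at least 2-fold higher in MDVR, where 1.65% of all genes were, and 0 lower. In AbiR, 0 of the 9 were at least 2-fold higher, where 1.07% of all genes were. AKR1C3, which reduces androstenedione to testosterone, had centred values of −0.50 on the parental, 3.52 on the MDVR and −0.49 on the AbiR array. Its paralogs AKR1C2 and AKR1C1 mainly inactivate steroids. AKR1C2 differed by 2.00 ± 1.59 over 3 probe sets and AKR1C1 by 1.06 ± 1.30 over 5. For both, the highest values came from probe sets of suffix _x, which may read close relatives, at 2.25 and 3.45 for AKR1C2 and at 1.91 and 2.94 for AKR1C1. The other probe set of AKR1C2 gave 0.30, and the others of AKR1C1 gave 0.05, 0.11 and 0.32. The difference of AKR1C1 and AKR1C2 therefore rests on probe sets that could also read AKR1C3 transcripts.

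Other enzymes of steroid synthesis and conversion were mostly within 2-fold. Among 26 genes of steroid synthesis and conversion the median was 0.04, with 0 at least 2-fold higher and 1 lower. CYP11A1, which starts steroid synthesis from cholesterol, was the lower one, at −1.11 (AbiR −1.10). CYP17A1 differed by 0.29 ± 0.18 and SRD5A1, a 5α-reductase, by −0.30 ± 0.15. HSD3B1, which acts early on adrenal androgens, had a probe set at 1.84 and another at −0.40. Some UDP-glucuronosyltransferases tag androgens for removal. In the list of these and related genes, which also held UGDH, 3 of 9 measured were at least 2-fold lower, where 1.67% of all genes were. UGT2B28 differed by −2.12, UGT8, which acts on lipids, by −1.43 ± 0.25, and UGT2B17 by −1.49. UGT2B17 had centred values of −0.35 on the parental, −1.84 on the MDVR and 1.34 on the AbiR array, so the 2 sublines lay on opposite sides of their parent. UGT2B15, its close paralog, differed by −0.25 ± 0.18 (3 probe sets).

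**Figure D3:**
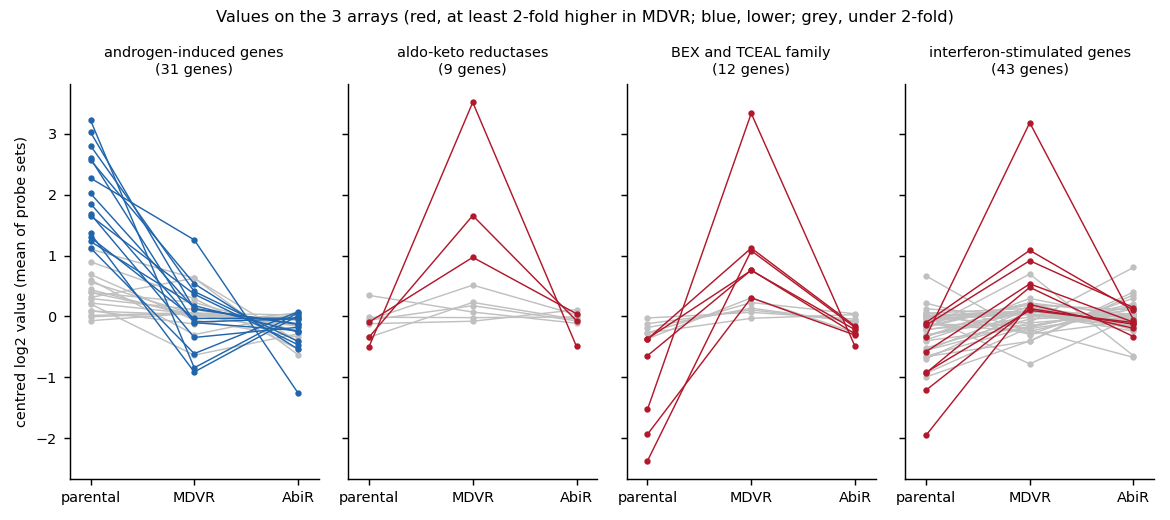
Centred log2 values (y axis, mean of probe sets) of single genes on the parental, MDVR and AbiR arrays (x axis), for 4 gene lists, in red where at least 2-fold higher in MDVR than parental, in blue where lower and in grey otherwise. KLK3 (3.22) was high on the parental array, whereas AKR1C3 (3.52) and BEX1 (3.34) were high on the MDVR array.

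Lineage markers gave no common direction. Of 16 luminal prostate markers, 3 were at least 2-fold lower and 0 higher, with a median of −0.32 (−0.49 without the _s, _x and _a probe sets). Besides KLK3, these were the prostein gene SLC45A3 at −2.91 ± 0.72 and the secreted protein MSMB at −2.26 ± 0.65. The luminal keratins KRT8 and KRT18 differed by 0.32 and −0.10. Of 9 basal markers 0 passed 2-fold, with KRT5 at −0.23 and KRT14 at 0.01. Markers of fibroblasts (10 genes, from −0.30 to 0.50), endothelial cells (9 genes, from −0.12 to 0.28) and leukocytes (10 genes, from −0.02 to 0.23) all lay within 2-fold. Because the values were centred, whether any of these markers was expressed or absent could not be read.

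Neuroendocrine markers, which appear in some prostate cancers that no longer depend on androgen, were also mostly within 2-fold. Of 29 measured, 1 was at least 2-fold higher and 0 lower, with a median of 0.08. It was ENO2, neuron-specific enolase, at 2.80 in MDVR and 2.85 in AbiR. The granule proteins CHGA and CHGB differed by 0.01 and 0.02, the vesicle protein SYP by −0.35 and the transcription factor INSM1 by 0.11 ± 0.01 (2 probe sets). Among 32 peptide hormone and neuropeptide genes, 2 were at least 2-fold higher. Besides GCG, this was NTS, neurotensin, at 1.96 in MDVR and 3.53 in AbiR. Among 32 synaptotagmin and exocytosis genes, SYT4 at 4.41 and SYT17 at 2.12 ± 0.07 were at least 2-fold higher, and CADPS2, a priming factor for dense-core vesicles, was lower at −3.80.

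The BEX and TCEAL genes are a cluster of small X-linked genes, many of them active in neurons. Of 12 measured, all differed by more than 0, and 6 were at least 2-fold higher, where 1.65% of all genes were. The list median was 0.90, beside 0.044 over all genes. Each BEX and TCEAL gene was read by 1 probe set. BEX1 had centred values of −1.53 on the parental, 3.34 on the MDVR and −0.49 on the AbiR array, and BEX5 had −2.37, 1.08 and −0.18. The others past 2-fold were TCEAL2 at 2.24, TCEAL3 at 1.49, BEX4 at 1.41 and TCEAL9 at 1.12. In AbiR the list median was 0.26, and 3 of 12 were at least 2-fold higher, where 1.07% of all genes were. BEX1 stood at 1.04 there. Neuronal adhesion and guidance genes went both ways, with 7 of 52 at least 2-fold higher and 3 lower, beside 1.65% and 1.67% of all genes. Besides LRRN1 and TENM2, AMIGO2 differed by 2.94 (AbiR 2.78), SEMA3C by 1.63 ± 0.12 and SEMA6A by 1.48 ± 1.11 (5 probe sets, AbiR −0.01). EPHA3, an ephrin receptor, differed by −2.79 ± 2.57, and its only probe set without such a suffix gave 0.079. The list of tubulins and microtubule proteins held 3 of 25 genes at least 2-fold higher and 1 lower. The higher ones were TUBA1A at 3.62 (AbiR 3.29), TUBB4A at 2.02 and TUBB6 at 1.60, each by 1 probe set, and the tubulin genes are close in sequence.

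Secreted signals and their receptors contained some of the larger single differences. In the Wnt list, 5 of 50 genes were at least 2-fold higher, where 1.65% of all genes were, and 0 lower, with a median of 0.12. DKK1, a secreted Wnt inhibitor, had centred values of −0.09 on the parental, 2.74 on the MDVR and 0.09 on the AbiR array. The ligand WNT5A differed by 2.61 ± 0.31 (AbiR 3.13), the receptors FZD7 and FZD2 by 1.55 ± 0.46 and 1.33 ± 0.81, and the nuclear effector LEF1 by 1.12 ± 0.83. WLS, the carrier that Wnt proteins need for secretion, was not on that list and differed by 2.39 ± 0.44 (3 probe sets, AbiR 2.15). In the TGF-beta and BMP list, 2 of 43 were at least 2-fold higher and 2 lower. BAMBI, a decoy receptor that blocks TGF-beta signalling, differed by 3.21 in MDVR and 1.35 in AbiR. PMEPA1, which also restrains that pathway and is induced by androgen, differed by −2.39 ± 1.03, and the receptor BMPR1B by −2.03 ± 2.20.

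Insulin-like growth factor genes differed at several levels of the pathway. The ligand IGF1 differed by −2.79 ± 2.23 over 5 probe sets (AbiR −1.89) and the receptor IGF1R by −2.03 ± 1.86 over 5 (AbiR −1.86). The binding protein IGFBP3 differed by 2.85 ± 0.32 over 2 (AbiR 4.59). Probe sets of IGF1 ran from −5.38 to −0.06 and those of IGF1R from −4.76 to 0.02. They disagreed on the size, and for IGF1R the highest was not lower in MDVR. IGF1, IGF1R and IGFBP3 were the members past 2-fold of 16. In the EGF and FGF list, 5 of 32 were at least 2-fold lower, where 1.67% of all genes were, and 0 higher. The ligand EGF differed by −1.97 and the receptor FGFR3 by −1.03 ± 1.40. The remaining ones were inhibitors that MAP kinase signalling itself induces, DUSP4 at −2.57 ± 0.48, SPRY2 at −1.72 and SPRY1 at −1.09 ± 1.03. SPRY2 had 0.07 on the parental, −1.65 on the MDVR and −0.07 on the AbiR array. Of cyclic nucleotide genes, 2 of 38 were lower, PRKACB and the guanylate cyclase subunit GUCY1A1, which was at −1.95 ± 0.64 in MDVR and −4.09 in AbiR.

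Interferon-stimulated genes, which carry antiviral functions, were higher as a group. Of 43 measured, 8 were at least 2-fold higher, where 1.65% of all genes were, and 0 lower. The list median was 0.38, and 0.24 without the _s, _x and _a probe sets. In AbiR 6 were at least 2-fold higher with a median of 0.23. UBE2L6, the conjugating enzyme for the ubiquitin-like protein ISG15, had centred values of −0.33 on the parental, 3.18 on the MDVR and −0.05 on the AbiR array. IFIT1, which binds foreign RNA, had −1.95, 0.20 and −0.20, and IFI6 had −1.21, 0.13 and −0.13. UBE2L6 was therefore high on the MDVR array, whereas IFIT1 and IFI6 were low on the parental array. The regulator IRF7 differed by 1.41, and the membrane proteins IFITM1, IFITM3 and IFITM2, which are close in sequence, by 1.19, 1.11 and 1.06. BST2, which tethers viruses to the cell surface, was the lowest at −0.97. Among 26 immunoproteasome, peptide loading and HLA genes the median was 0.42, and 1 was at least 2-fold higher, the catalytic subunit PSMB8 at 1.83. The median fell to 0.17 without the same probe sets, and in AbiR it was 0.31 with 2 at least 2-fold higher.

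The promoters of IFIT1 and IFI6 are shown because, of the 2 lists searched for motifs, the interferon-stimulated genes more often held the one searched for them. They are the 250 bases before the start in RefSeq, assembly GRCh38.p14. IFIT1 lies on the plus strand at chr10:89392373-89392622 and IFI6 on the minus strand at chr1:27672193-27672442. Capitals mark GAAANNGAAA, the core of the interferon-stimulated response element, on either strand. It was found at 2 places in IFIT1 and at 3 in IFI6.
IFIT1: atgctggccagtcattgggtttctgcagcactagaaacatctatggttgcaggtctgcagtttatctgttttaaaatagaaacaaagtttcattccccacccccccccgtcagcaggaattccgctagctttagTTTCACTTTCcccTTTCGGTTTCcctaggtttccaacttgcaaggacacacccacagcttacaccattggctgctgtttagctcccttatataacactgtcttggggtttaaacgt
IFI6: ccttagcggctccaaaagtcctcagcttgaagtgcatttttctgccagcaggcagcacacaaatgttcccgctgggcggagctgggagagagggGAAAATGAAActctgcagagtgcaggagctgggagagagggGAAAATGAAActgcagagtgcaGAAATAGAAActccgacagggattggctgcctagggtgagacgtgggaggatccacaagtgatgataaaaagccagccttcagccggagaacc

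This core was present in 21 of 34 promoters of interferon-stimulated genes (61.8%), in 381 of 15384 promoters of measured genes (2.48%) and in 0 of 24 androgen-induced promoters. The interferon-stimulated genes with it had a median MDVR minus parental difference of 0.40, and those without it 0.31. A match is a run of letters, and no binding was measured.

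**Figure D4:**
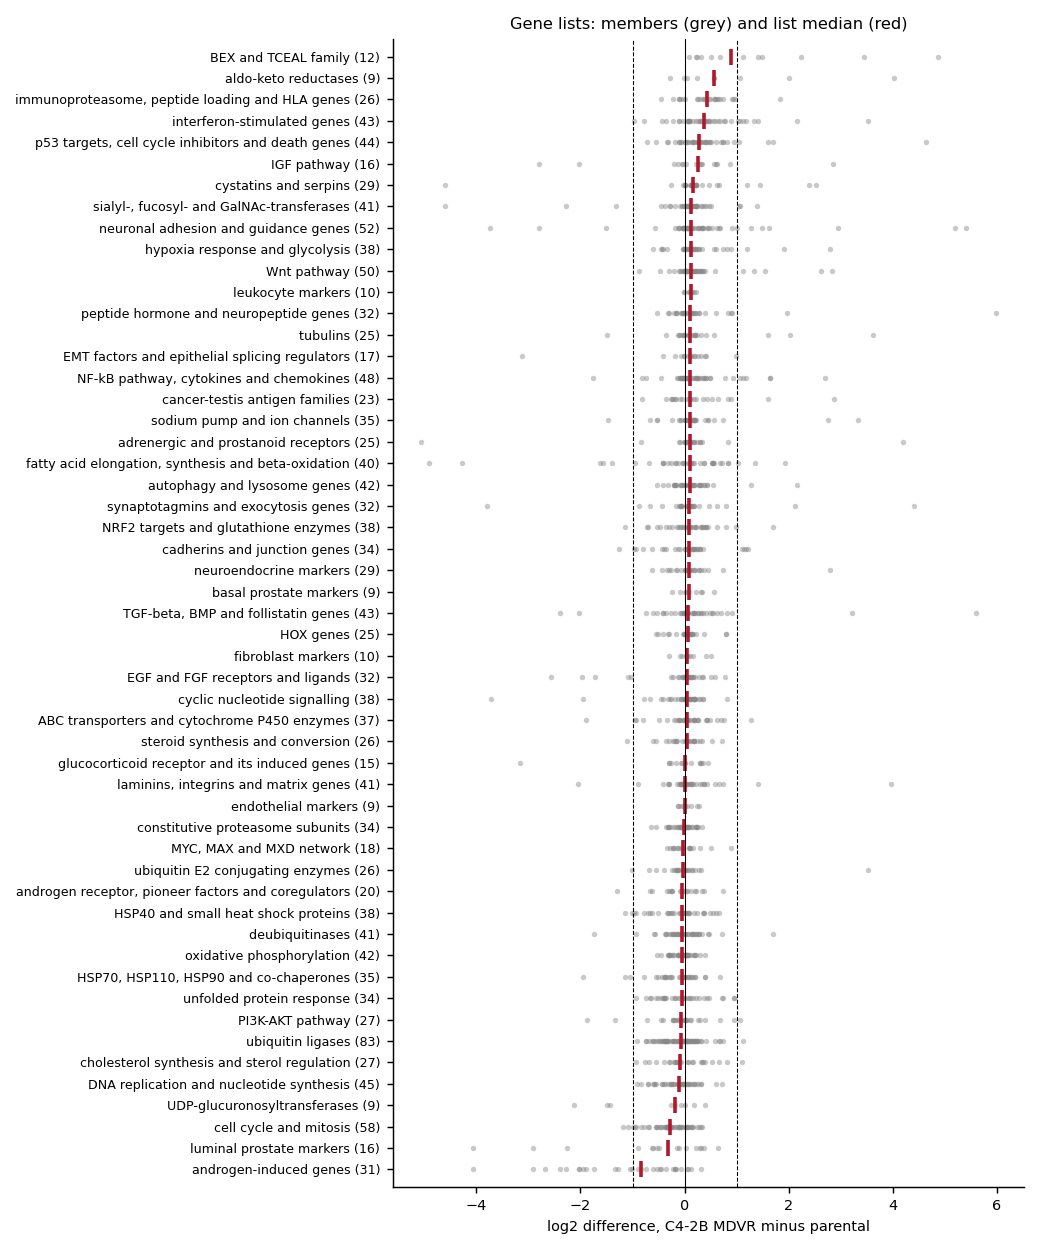
Each row is 1 of 53 gene lists, labelled with how many of its genes were measured, and the x axis is the MDVR minus parental log2 difference, with grey points for single genes, red bars for list medians and dashed lines at 2-fold. BEX and TCEAL genes have the highest median at 0.90 and androgen-induced genes the lowest at −0.84, and most other medians lie near 0.

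Lipid enzymes held large differences in both directions. Of 40 genes of fatty acid elongation, synthesis and oxidation, 3 were at least 2-fold higher and 5 lower. The elongase ELOVL7 had 3.91 on the parental, −1.01 on the MDVR and −0.30 on the AbiR array. Its relative ELOVL2 differed by −1.62 ± 1.11, whereas ELOVL3 differed by 1.92 (AbiR 0.22). In oxidation, the peroxisomal enzyme EHHADH differed by −1.58 (AbiR 0.18) and the acyl-CoA synthetase ACSL1 by −1.39 ± 0.14 (AbiR −0.13). The thiolase ACAA2 differed by 1.35 ± 1.31. Of 27 cholesterol synthesis genes 1 passed 2-fold, the reductase TM7SF2 at 1.11, and of 42 oxidative phosphorylation subunits 0 did. Hypoxia and glycolysis genes held 3 of 38 at least 2-fold higher, with ALDOC at 1.92 (AbiR 0.38) and CA12 at 1.20 ± 0.70 beside ENO2.

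Glycosyltransferases shape the sugars on secreted and surface proteins. Of 41 measured, 3 were at least 2-fold higher and 3 lower. ST6GALNAC1, which makes the sialyl-Tn antigen, had 4.23 on the parental, −0.37 on the MDVR and 0.37 on the AbiR array. GALNT7, which starts or extends O-linked chains, differed by −2.27 ± 0.39, and GALNT14 by 1.39. Protease inhibitors also split, with 4 of 29 at least 2-fold higher and CSTA lower. SERPINI1, neuroserpin, differed by 2.52 (AbiR 3.30), the secreted inhibitor SLPI by 2.38 and the metalloproteinase inhibitor TIMP2 by 1.44 ± 0.28. Of 41 laminin, integrin and matrix genes, fibronectin FN1 differed by 1.40 ± 0.82 over 7 probe sets and the collagen chain COL4A2 by −2.05 ± 0.71, while its AbiR value was −0.22. SNAI2, a repressor of epithelial genes, was the only one of 17 factors of epithelial-mesenchymal transition and splicing past 2-fold, at −3.12 (AbiR −3.07). In the cadherin and junction list, OCLN differed by 1.19 ± 0.06 over 4 probe sets and CDH3 by 1.10, and the desmocollin DSC1 by −1.26.

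Cell cycle and replication genes were mostly within 2-fold. Of 58 cell cycle and mitosis genes, 2 were at least 2-fold lower and 0 higher, with a median of −0.28. Cyclin A2, CCNA2, differed by −1.18 ± 0.26 and the kinetochore motor CENPE by −1.09. Of 45 replication genes 0 passed 2-fold, with a median of −0.11. Among 44 p53 targets, cell cycle inhibitors and death genes the median was 0.27 (0.14 without the _s, _x and _a probe sets) and 4 were at least 2-fold higher. Besides DAPK1, they were BTG1 at 1.70 ± 1.44, GADD45A at 1.60 and the cyclin-dependent kinase inhibitor CDKN1A at 1.05. In the PI3K-AKT list, the regulatory subunit PIK3R1 differed by 1.05 ± 0.19, and the kinase RPS6KA3 and the phosphatase INPP4B by −1.87 ± 0.61 and −1.33 ± 1.58. Inflammatory genes held 6 of 48 at least 2-fold higher and 1 lower, beside 1.65% and 1.67% of all genes. The higher ones were led by the chemokine CCL20 at 2.69, with the cytokine LIF at 1.64 and the chemokine CXCL8 at 1.19 ± 0.66.

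Protein quality control, the subject of the study, showed few differences past 2-fold. The paper read its microarray data of these lines with pathway and gene set analyses. It also measured STUB1 RNA and protein, and proteasome activity. A count past 2-fold is another measure than these. Of 83 ubiquitin ligases, 1 was at least 2-fold higher and 0 lower, with a median of −0.07. In direction, 50 were below 0 and 33 above. STUB1, a ligase that works with HSP70, had 0.08 on the parental, −0.25 on the MDVR and 0.04 on the AbiR array. Its difference was −0.33 ± 0.02, with its 3 probe sets at −0.345, −0.341 and −0.312. All of them lay slightly below the lowest spiked control, −0.29, and were smaller in size than the highest, 0.35. Of 34 constitutive proteasome subunits 0 passed 2-fold, with a median of −0.02. Of 35 HSP70, HSP110, HSP90 and co-chaperone genes, 3 were at least 2-fold lower and 0 higher. These were FKBP5 at −1.96 ± 0.14, which is also androgen-induced, HSPH1 at −1.15 ± 0.40 and PPID at −1.06 ± 0.41. Of 38 HSP40 and small heat shock genes 2 were lower, DNAJC1 at −1.15 ± 0.14 and DNAJC10 at −1.02 ± 0.72. Of 34 unfolded protein response genes 0 passed 2-fold. Of 42 autophagy and lysosome genes 2 were higher, the receptor OPTN at 2.17 ± 0.22 and GABARAPL1 at 1.27 ± 0.34.

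Neighbouring genes were read with a running median over 21 genes in chromosome order. Over 19230 such windows the median was 0.045. Apart from the outermost 1% at each end, the MDVR windows lay between −0.26 and 0.25. The windows described here were picked for their extreme MDVR medians. Counts of their genes above or below 0 therefore follow largely from that choice and are no separate evidence. The lowest window lay on chromosome 6 between TRIM38 and H3C6, in the main histone cluster, at −0.69 in MDVR and −0.22 in AbiR. Without the _s, _x and _a probe sets, which may read several histone copies, its MDVR median was −0.40. Of its 21 genes, 16 were below 0 and 7 at least 2-fold lower, led by H2AC6 at −2.99. On chromosome 13, the window from IFT88 to NUS1P3 had a median of −0.52 (AbiR −0.21), with 19 of 21 genes below 0. There, PCOTH differed by −1.59, the mitochondrial peptidase MIPEP by −1.12 ± 0.23, SKA3 by −1.08 and the exportin XPO4 by −1.07 ± 0.38. Over all 401 genes placed on chromosome 13 the median was −0.10, the lowest among chromosomes 1 to 22 and X, with Y not read. A window on chromosome 8 had −0.53 in MDVR and −0.48 in AbiR, and one on chromosome 4 from TRMT10A to CENPE had −0.43 and −0.13.

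The highest window lay on chromosome 17 from NAGS to FZD2, at 0.50 in MDVR and 0.084 in AbiR. All 21 genes were above 0, of which 2 were at least 2-fold higher, FZD2 and the growth factor precursor GRN at 1.16 ± 0.03 (3 probe sets). On chromosome 1, the window from S100A8 to CRTC2 had a median of 0.34 (AbiR 0.048, and 0.19 in MDVR over genes with at least 2 probe sets), with 20 of 21 genes above 0 and none past 2-fold. The calcium-binding proteins S100A14, S100A4 and S100A16 differed there by 0.74, 0.60 and 0.58. On chromosome 16, the window from CDIPTOSP to CD2BP2 had 0.34 in MDVR and 0.30 in AbiR. On chromosome 19, the window from RELB to OPA3 had 0.33 and 0.10. Copy number was not measured in these data.

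**Figure D5:**
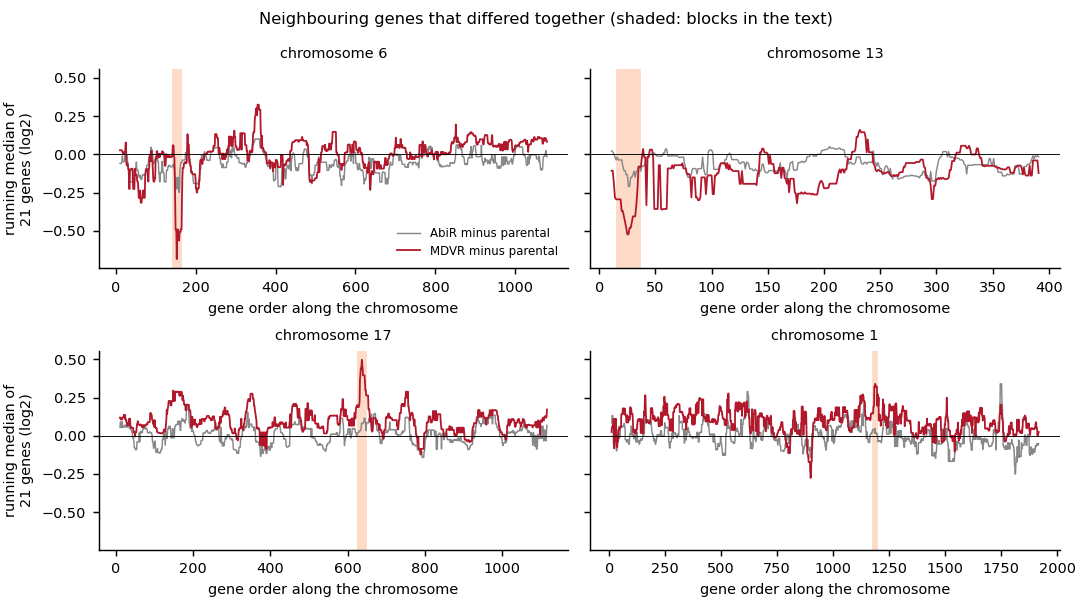
Running median over 21 neighbouring genes of the log2 difference (y axis) against gene order (x axis, number of the gene along the chromosome) on 4 chromosomes, in red for MDVR minus parental and grey for AbiR minus parental, with the described windows shaded. The MDVR line reaches −0.69 on chromosome 6, −0.52 on chromosome 13 and 0.50 on chromosome 17, where the AbiR line stays nearer 0. The windows were picked on the MDVR values alone, and those on chromosomes 4, 8, 16 and 19 are not drawn. Over all windows the AbiR medians ran from −0.48 to 0.34.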

How the data were processed

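Total RNA of 3 C4-2B lines was hybridised to Affymetrix HG-U133 Plus 2.0 arrays, 1 per line. The authors deposited log2 values made with RMA, as the processing notes of the submitters name it (version not given in the sources used here), centred for each probe set. RMA corrects background, normalizes between arrays and summarizes probes. A pair of values mirrored around 0, within a tolerance of 2e-06, occurred in 53.4% of probe sets. The values would fit a median centre over 4 arrays, but only 3 were given. That a further array entered the centring is inferred and was not tested. No level, depth or detection call remains, and the number of arrays limits precision.

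Of 54675 probe sets, 41091 had 1 gene symbol, 1801 several, 11721 none here and 62 were controls. Probe sets with 1 symbol gave 19775 genes, named through gene IDs in RefSeq of GRCh38.p14 (99.9% matched), which also gave gene order. Genes were averaged over probe sets and differences taken from the parental array with Python 3.11.15, pandas 2.3.3 and numpy 2.4.6. Scripts were checked on simulated data. No test was run, since 1 array per line gives no replicate error.

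Genes named were the 20 highest and 20 lowest with at least 2 probe sets past 2-fold in 1 direction and none in the other, the 12 highest and 12 lowest with all probe sets in 1 direction, the 3 highest and 3 lowest of each list, fixed genes and, as exceptions, members past 2-fold or defining markers. The 53 lists held 1768 genes, 1604 of them measured. The members, lists and rules were chosen with earlier results of these data known. Alternatives were array centring on the median or on spiked controls, the median of probe sets, other probe set selections and a 3-fold threshold. The result of 1 gene is not reported here.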

Additional observations from a re-analysis of the deposited data

Results flagged for a closer look

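Genes at least 2-fold higher in 1 resistant subline and at least 2-fold lower in the other, each against the same parental array, were singled out because the sublines lay on opposite sides of their parent. The difference between the sublines was not tested. The nuclear receptor gene NR2F1, an orphan receptor of neural and mesenchymal development, differed by −1.54 in MDVR and 1.75 in AbiR, with centred values of −0.52 on the parental, −2.06 on the MDVR and 1.23 on the AbiR array. UGT2B17, which glucuronidates testosterone and dihydrotestosterone, differed by −1.49 and 1.69. The deiodinase DIO1, which activates thyroid hormone, differed by −1.06 and 1.53. The potassium channel KCNQ5 differed by −1.41 and 1.17. The leucine zipper gene LUZP2 differed by −1.20 and 1.72. The uncharacterised gene LOC105371703 differed by 1.17 and −1.30.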

How the results depend on the processing

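Centring the arrays on their medians or on the spiked controls gave 314 or 320 genes at least 2-fold higher and 351 or 337 lower, and the median of probe sets gave 328 and 339. Genes with at least 2 probe sets alone gave 135 and 182, by construction fewer, and a 3-fold threshold gave 136 and 106. Without the probe sets that may read several transcripts (_s, _x or _a) there were 247 and 352, of which 224 and 271 were among those first counted. In that setting KLK2 turned to 0.20 and EPHA3 to 0.079, and the medians moved to −0.61 for androgen-induced genes, 0.30 for aldo-keto reductases, −0.49 for luminal markers, 0.084 for the IGF pathway, 0.24 for interferon-stimulated genes, 0.17 for immunoproteasome and HLA genes, 0.14 for p53 and death genes and −0.40 for the chromosome 6 window. With at least 2 probe sets per gene they were 0.24 for aldo-keto reductases, −0.84 for UDP-glucuronosyltransferases, −0.51 for luminal markers, 0.029 for the IGF pathway, −0.18 for the unfolded protein response, 0.29 for cancer-testis genes, −0.85 for the chromosome 6 window and 0.19 for the chromosome 1 window. Among genes with at least 2 probe sets, the UDP-glucuronosyltransferase median rested on UGT8 (−1.43) and UGT2B15 (−0.25) alone. The aldo-keto reductase median was 0.36 with the median of probe sets. The cause was not tested. With 1 array per line no replicate could be left out, and no paired analysis was possible because there were no replicates.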

Other observations

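Histone genes, chosen after their values were seen, were lower in MDVR beyond the chromosome 6 window. Histones package DNA, and most of their genes are expressed in S phase. The cell cycle and mitosis list had a median of −0.28 in MDVR, and its part in the histone values was not tested. Of 44 histone genes measured, 37 were below 0, 15 were at least 2-fold lower and 0 higher, with a median of −0.54. Over all genes 1.67% were at least 2-fold lower, and the median was 0.044. In AbiR the median of the histone genes was −0.32 and 4 were at least 2-fold lower, beside 0.804% of all genes. H2AC6 had centred values of 0.66 on the parental, −2.33 on the MDVR and −0.34 on the AbiR array, and H2BC12 had 0.62, −1.90 and −0.11. The variant H2AJ, whose gene lies outside the clusters, differed by −2.82 ± 0.99 over 4 probe sets (AbiR −0.33). H2BC12L, H2BC4 and the linker histone H1-2 differed by −2.68, −2.37 and −2.24. Copies of a histone are near-identical, so a probe set may read several. Of the 44 genes, 40 lie on chromosome 6, with a median of −0.50.

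Among drug-handling genes, GSTM2, a glutathione transferase, had 0.07 on the parental, 1.77 on the MDVR and −0.07 on the AbiR array. It was read by 1 probe set, of suffix _x, which may read close relatives. Of 38 NRF2 target and glutathione genes, GSTM2 was the 1 at least 2-fold higher. ME1 was the 1 lower, at −1.14 ± 1.27. CYP1A1, which oxidises xenobiotics, differed by 1.27 in MDVR and 0.86 in AbiR. The deubiquitinase USP11 differed by 1.69 and 1.09. The microtubule-associated protein MAP1B differed by −1.49 ± 0.87 over 3 probe sets in MDVR and by 0.78 in AbiR. SSX1, a cancer-testis gene, differed by 1.59 ± 1.72 over 2 probe sets, against −0.30 in AbiR. Its probe set of suffix _x gave 2.81 in MDVR and the other 0.38.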
